A study of Mus musculus with 6 samples.

Results

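Matrix metalloproteinases (MMPs), the related ADAMTS proteases, the ADAMTS-like proteins and the tissue inhibitors of metalloproteinases (TIMPs) were examined in whole lung of mice lacking Clec7a and of wild-type mice. The genes were taken by symbol from a table of 26100 gene rows: every Mmp gene with a number, Timp1 to Timp4, every numbered Adamts gene and every numbered Adamtsl gene. This gave 51 genes, of which 23 were MMP, 4 TIMP, 19 ADAMTS and 5 ADAMTSL genes. RNA sequencing had been done on lung tissue of 3 wild-type mice (WT) and 3 mice labelled Clec7a knockout (KO). All 6 mice had received bleomycin, a drug that injures the lung epithelium and starts fibrosis, into the trachea, and their lungs were taken after 14 days. No lung without bleomycin was analysed here, so the genotypes were compared after injury alone. The labels give no strain, age or sex, no design of the knockout allele, and no cell type or stage at which the gene is lost.

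MMPs are zinc-dependent proteases that cut collagens, elastin, proteoglycans and other matrix and cell-surface proteins. Most are secreted as inactive precursors whose propeptide is removed by plasmin, by furin-like enzymes or by other MMPs. The ADAMTS proteases are secreted zinc enzymes that cut proteoglycans, trim procollagens or act on other matrix proteins, and the ADAMTS-like proteins resemble them but lack a protease domain. TIMPs bind the active site of these enzymes and block them, and TIMP3 is the main one to act on ADAMTS proteases as well. In the fibrosing lung the family is known both for breaking down matrix and for processing new collagen. Clec7a encodes Dectin-1, a receptor for fungal beta-glucan on myeloid cells.

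The libraries held 31052936 to 34451956 counts, and 45 to 48 of the 51 genes had at least 1 count in a library. Clec7a stood at 60.6, 84.0 and 197 CPM (counts scaled to library size) in WT replicates 1 to 3 and at 3.60, 6.85 and 2.84 CPM in KO replicates 1 to 3. Sftpc, the surfactant gene of type 2 alveolar cells and a marker of lung, was at 938 to 13701 CPM. The replicates numbered 1 were low for most of these genes. In 30 of the 44 genes tested, 15 of 17 ADAMTS genes among them, both first replicates were the lowest of their genotype, which held for 30.1% of all 16633 genes tested. Mitochondrial transcripts made up 7.34% of counts in KO replicate 1 and 2.69% to 3.87% in the other 5 libraries. Summed levels of 8 activated fibroblast markers were 4033 CPM in WT replicate 1 against 15156 and 17036 CPM in WT replicates 2 and 3, and 1822 CPM in KO replicate 1 against 10700.5 and 6103 CPM in KO replicates 2 and 3. The tests were therefore also run without both first replicates. In whole tissue, fewer cells of a type and less RNA per cell cannot be told apart.

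Of the 51 genes, 44 passed the filter on low counts and were tested, and 7 did not. The 7 were Mmp1a, Mmp1b, Mmp7, Mmp20, Mmp21, Adamts13 and Adamts18, with 0 to 16 counts in a library, and Mmp1a had 0 counts in every library. A count of 0 allows up to 0.0948 CPM in KO replicate 1, the highest such limit (3 counts) of the 6 libraries, for counting error only. None of the 44 genes passed an adjusted p of 0.05 in edgeR's quasi-likelihood test with Benjamini-Hochberg adjustment over all genes tested. The background was 0%, since none of the 16633 genes passed, and the smallest adjusted p was 0.234 among the 44 genes and 0.203 among all genes. At an unadjusted p under 0.05 the edgeR test took 9 of the 44 (20.5%), of which 2 were higher and 7 lower in KO, against a background of 11.8%. For higher genes the background was 5.95%, and for lower genes 5.89%. This count was 14 without WT replicate 1 and 5 without WT replicate 2, fits whose background was not computed. It was 23 of 45 without both first replicates, where the background rose to 30%. DESeq2, run as an alternative with its own filter, called 4 of the 47 genes to which it gave an adjusted p, with Mmp12 and Mmp15 higher and Mmp10 and Mmp19 lower in KO, against a background of 3.5% (1.83% higher and 1.67% lower). Limma-voom with sample weights, another alternative, called 12 of the 44 against a background of 13.4%.

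All 3 KO libraries lay above all 3 WT libraries for 3 genes (Mmp12, Mmp15 and Adamtsl1; background 9.81%). They lay below all 3 WT libraries for 6 genes (Mmp10, Mmp19, Mmp24, Mmp27, Timp1 and Timp4; background 11.3%), which makes 9 of 44 without overlap in either direction against 21.1% of all genes tested. The share without overlap was thus near the background. The estimate was higher in KO for 16 genes and lower for 28, while 49% of all genes tested had a higher estimate. Across the 44 genes the median log2 fold change, KO minus WT, was -0.15, beside -0.01 over all genes tested. The medians by family were -0.39 for 18 MMP genes, -0.73 for the 4 TIMP genes, -0.10 for 17 ADAMTS genes and 0.27 for the 5 ADAMTSL genes. The MMP median was -0.21 without KO replicate 1 and -0.57 when KO replicate 2 was left out, and -0.10 on log2(FPKM + 1) with no filter. The TIMP median was -0.41 without both first replicates and -0.22 on log2(FPKM + 1). The ADAMTS median was 0.25 without KO replicate 1, and the ADAMTSL median was -0.11 without WT replicate 1, so neither of these last directions held in every library set.

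**Figure D1:**
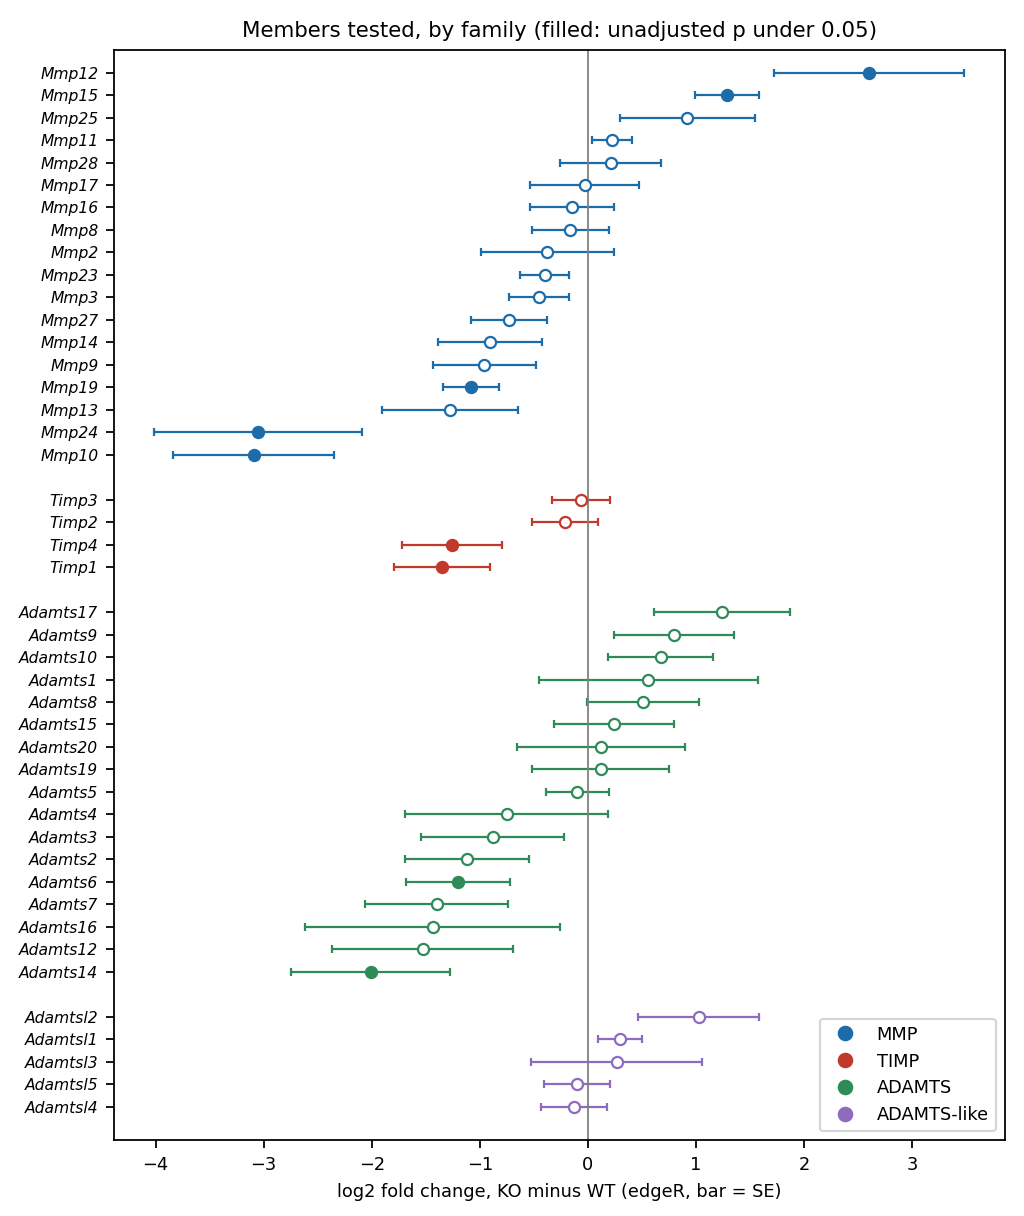
The 44 tested genes by family, with the log2 fold change (KO minus WT) on the horizontal axis, bars for 1 standard error and filled points for an unadjusted edgeR p under 0.05. Mmp12 and Mmp15 are filled on the right, and Mmp10, Mmp24, Adamts14, Timp1, Timp4, Adamts6 and Mmp19 are filled on the left.

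A run of 10 of the 23 MMP genes sits side by side on chromosome 9 over 427 kb, and these neighbours did not share a direction. Of the 6 tested there, Mmp12 had a higher estimate in KO and Mmp13, Mmp3, Mmp10, Mmp8 and Mmp27 had lower ones. The promoters of 4 of them are shown because the genes lie in 1 cluster and carry the same motif near their starts, while Mmp12 and Mmp10 had estimates in opposite directions. Each sequence is from RefSeq (GRCm38.p6, plus strand), runs 5′ to 3′ and covers 300 bases. The capitals mark the letters TGANTCA, the usual form of a site for AP-1, a transcription factor made of Fos and Jun proteins. The Mmp13 promoter spans chr9:7272264-7272563, that of the second Mmp12 start chr9:7347124-7347423, that of Mmp3 chr9:7445572-7445871 and that of Mmp10 chr9:7502092-7502391. The Timp1 promoter (chrX:20869916-20870215) is shown beside them as one without those exact letters. It holds TGAGTAA near its end, which differs from them by 1 letter and was not searched.
Mmp13: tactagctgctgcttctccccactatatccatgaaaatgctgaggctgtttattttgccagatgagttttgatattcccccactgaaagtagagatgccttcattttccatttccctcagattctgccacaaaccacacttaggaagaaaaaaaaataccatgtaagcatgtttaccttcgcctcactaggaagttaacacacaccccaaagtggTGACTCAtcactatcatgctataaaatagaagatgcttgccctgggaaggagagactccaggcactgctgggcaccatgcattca
Mmp12: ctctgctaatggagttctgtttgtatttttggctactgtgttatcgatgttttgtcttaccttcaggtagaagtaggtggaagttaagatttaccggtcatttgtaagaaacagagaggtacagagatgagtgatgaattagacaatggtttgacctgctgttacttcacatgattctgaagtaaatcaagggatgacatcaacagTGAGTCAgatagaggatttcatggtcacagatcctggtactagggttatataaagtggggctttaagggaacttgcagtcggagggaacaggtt
Mmp3: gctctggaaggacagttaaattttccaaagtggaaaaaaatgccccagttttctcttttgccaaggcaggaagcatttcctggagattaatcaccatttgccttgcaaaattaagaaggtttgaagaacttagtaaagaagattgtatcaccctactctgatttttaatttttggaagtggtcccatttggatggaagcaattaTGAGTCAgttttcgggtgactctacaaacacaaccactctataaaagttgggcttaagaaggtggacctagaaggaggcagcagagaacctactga
Mmp10: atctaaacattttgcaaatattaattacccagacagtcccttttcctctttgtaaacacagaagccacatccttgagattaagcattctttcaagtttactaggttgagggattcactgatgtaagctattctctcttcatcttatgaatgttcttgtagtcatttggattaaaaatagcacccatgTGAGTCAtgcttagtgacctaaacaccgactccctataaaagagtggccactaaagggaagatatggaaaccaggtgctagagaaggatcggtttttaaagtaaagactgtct
Timp1: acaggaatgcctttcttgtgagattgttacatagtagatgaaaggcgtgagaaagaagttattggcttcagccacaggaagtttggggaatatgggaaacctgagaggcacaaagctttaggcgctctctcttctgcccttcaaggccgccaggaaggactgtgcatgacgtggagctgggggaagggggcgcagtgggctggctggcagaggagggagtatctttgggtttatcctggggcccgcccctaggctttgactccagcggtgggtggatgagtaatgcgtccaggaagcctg

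Promoters of 36 of the 51 genes were found in the RefSeq table. TGANTCA, searched on both strands, was in 8 of the 36, and all 8 were cluster genes: Mmp10, Mmp12, Mmp13, Mmp1a, Mmp1b, Mmp20, Mmp3 and Mmp7. The cluster genes Mmp8 and Mmp27 did not have it in this window, nor did any of the 4 TIMP or 10 ADAMTS genes found. Among all 27025 genes with a promoter of the same length, 8.97% had it. The first base lay 35 bases before the start in Mmp13, 44 before the second start of Mmp12, 46 in Mmp3 and 63 in Mmp10. Mmp12 has a first annotated start (chr9:7344147-7344446) whose window had no match, and the counts do not say which start was used. TATAAA, the TATA box letters, were in 12 of the 36, of which 10 were MMP genes, against 15.7% of all genes. AGGAAG, a form of the ETS family site, was in 15 of the 36 against 38.4% of all genes. A match is a run of letters and was not tested as a binding site. Near matches were not counted, so a gene without a match may still hold a variant of the site.

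Mmp12, the macrophage metalloelastase that cuts elastin, had the highest estimate of the 44 genes. It stood at 11.7, 26.9 and 77.3 CPM in WT replicates 1 to 3 and at 146, 465 and 93.3 CPM in KO replicates 1 to 3. All KO libraries lay above all WT libraries, but WT replicate 3 and KO replicate 3 were close together. The log2 fold change was 2.60 ± 0.88 (SE, n = 3 per genotype), or 6.08-fold higher in KO, with an adjusted p of 0.344 by edgeR and 0.0218 by DESeq2. The estimate was 1.63 when KO replicate 2 was left out and 3.60 when WT replicate 3 was. Mmp12 lies at chr9:7344381-7369499 on the plus strand, and its end overlaps Mmp1b on the other strand. Mmp1b had at most 0.476 CPM in a library, and the strand setting of the counting is not given in the sources used here.

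Macrophage markers went both ways within each of 2 lists. Of 8 alveolar macrophage markers, all detected, 5 had higher and 3 lower estimates. At an unadjusted edgeR p under 0.05, 3 were higher in KO (background 5.95%). The summed level was 1276 to 2050 CPM in WT and 543 to 1910 CPM in KO. Of 11 monocyte-derived macrophage markers, all detected, 3 had higher and 8 lower estimates, and 4 were lower at that p (background 5.89%). The sum was 9050 to 21294 CPM in WT and 6008 to 10877 CPM in KO. Fn1, also in the substrate list, was its largest part in replicates 2 and 3 of both genotypes. It was at 1928, 12078 and 12374 CPM in WT and at 790, 7284 and 3994 CPM in KO, with overlap. Without both first replicates, 2 alveolar macrophage markers were higher and 2 lower at an unadjusted edgeR p under 0.05, with a median of -0.06. The background in either direction was 30% in that fit. Ear2, one of the higher alveolar markers, was at 24.4, 22.5 and 23.0 CPM in WT and at 111, 79.4 and 31.1 CPM in KO. Chil3, the most abundant alveolar marker of the list, was at 1368, 1789.8 and 1026.5 CPM in WT and at 1140.3, 392.4 and 325 CPM in KO. Ear2 separated the genotypes and Chil3 did not. Arg1, the arginase of alternatively activated macrophages, was at 818, 681 and 443 CPM in WT and at 66.6, 22.9 and 15.5 CPM in KO. Their part in the Mmp12 result was not tested.

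Mmp10, stromelysin 2, cuts proteoglycans and activates other MMP precursors. It stood at 8.91, 16.9 and 9.81 CPM in WT and at 0.253, 1.99 and 1.91 CPM in KO. Every KO library was below every WT library, with KO replicate 1 the lowest of all. Its log2 fold change was -3.09 ± 0.74 (SE, n = 3 per genotype), or 8.53-fold lower, with an adjusted p of 0.242 by edgeR and 0.000619 by DESeq2. The estimate lay between -3.45 and -2.60 when any 1 library was left out, and the unadjusted edgeR p stayed at or below 0.017 in those 6 fits. Mmp10 lies at chr9:7502352-7510240.

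The other stromelysins behaved differently in size. Mmp3, stromelysin 1, was at 90.8, 91.1 and 55.2 CPM in WT and at 42.7, 63.1 and 67.4 CPM in KO, so that the genotypes overlapped (log2 fold change -0.45 ± 0.28). Mmp11, stromelysin 3, which furin activates inside the cell, was at 22.4, 19.9 and 17.8 CPM in WT and at 21.3, 22.4 and 26.5 CPM in KO (0.22 ± 0.18). Mmp11 overlaps Chchd10 on the other strand, which had 10.7 to 52.4 CPM. The overlap is of whole gene spans, and the Mmp11 value is uncertain as far as their exons share sequence.

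The collagenases cut the intact triple helix of fibrillar collagen, and 2 of 4 were tested. Mmp13, the main interstitial collagenase of rodents, was at 9.70, 24.3 and 21.4 CPM in WT and at 3.85, 14.8 and 4.22 CPM in KO. KO replicate 2 lay within the WT range and the other KO libraries below it (log2 fold change -1.28 ± 0.63). With any 1 library left out the estimate lay between -2.19 and -0.96. The unadjusted edgeR p was under 0.05 in 2 of those 6 fits and reached 0.209. The largest change, -2.19, came from leaving out KO replicate 2, with an unadjusted edgeR p of 0.0045 and an adjusted p of 0.365. Mmp8, the collagenase stored in neutrophil granules, was at 20.4, 36.8 and 26.2 CPM in WT and at 25.0, 34.4 and 15.2 CPM in KO, a difference of -0.16 ± 0.36 within the spread of the mice. Summed levels of 8 neutrophil markers, Mmp8 being 1 of them, were 186 to 241 CPM in WT and 121 to 189 CPM in KO. Of the 7 neutrophil markers tested, 3 were lower at an unadjusted edgeR p under 0.05 (background 5.89%). The part of neutrophils in the Mmp8 and Mmp9 values was not tested.

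**Figure D2:**
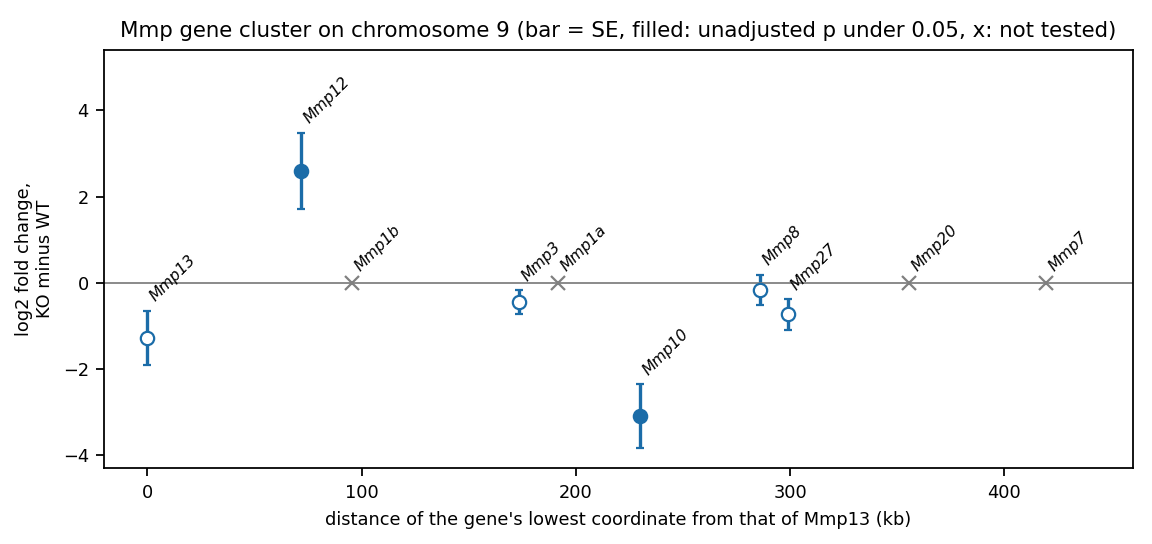
The 10 Mmp genes of the chromosome 9 cluster by distance from the lowest coordinate of Mmp13 in kb, with the log2 fold change (KO minus WT), bars for 1 standard error, filled points for an unadjusted edgeR p under 0.05 and crosses at 0 for the genes not tested. Mmp12 at 2.60 and Mmp10 at -3.09 lie on opposite sides of 0, and the other 4 tested genes lie between -1.28 and -0.16.

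The gelatinases cut denatured collagen and basement-membrane collagen, and both had lower estimates that edgeR did not call. Mmp2, made mainly by fibroblasts, was at 152, 451 and 457 CPM in WT and at 99.0, 416 and 302 CPM in KO. The first replicate was far below the other two in each genotype, and the estimate of -0.38 ± 0.62 became 0.02 without KO replicate 1. Mmp9, made largely by neutrophils and macrophages, was at 9.92, 31.8 and 24.6 CPM in WT and at 7.17, 11.9 and 15.02 CPM in KO. Its estimate was -0.96 ± 0.48, with an adjusted p of 0.49 by edgeR and 0.0413 by limma-voom with sample weights. That last fit called 12 members, Mmp9 being 1 of them, against a background of 13.4%. All KO libraries of Mmp9 lay below WT replicates 2 and 3.

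The 6 membrane-type MMPs, all tested, are anchored at the cell surface, and their estimates went both ways, with a median of -0.09. Mmp15 (MT2-MMP) was at 31.1, 22.8 and 28.1 CPM in WT and at 49.7, 55.5 and 95.3 CPM in KO. All KO libraries were above all WT libraries, KO replicate 3 furthest. The log2 fold change was 1.29 ± 0.29 (SE, n = 3 per genotype), or 2.45-fold higher, with an adjusted p of 0.234 by edgeR and 0.00947 by DESeq2. It stayed between 0.95 and 1.47 with any 1 library left out and was 1.58 without both first replicates. Mmp15 lies at chr8:95352268-95375080. Summed levels of 7 type 2 alveolar markers, an epithelial list, were 1805 to 9597 CPM in WT and 3320 to 18561 CPM in KO, and their part in the Mmp15 result was not tested.

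Mmp14 (MT1-MMP), a surface collagenase that activates the Mmp2 precursor together with TIMP2, was at 195, 425 and 459 CPM in WT and at 94.0, 274 and 207 CPM in KO. KO replicates 2 and 3 lay above WT replicate 1 and below WT replicates 2 and 3, for an estimate of -0.91 ± 0.48. Mmp24 (MT5-MMP), best known from the nervous system, had few counts: 20, 48 and 19 in WT and 4, 0 and 6 in KO. Its estimate was -3.05 ± 0.96 with an adjusted edgeR p of 0.312. Mmp24 (chr2:155775342-155818366) overlaps BC029722 on the other strand, which had 17.9 to 30.4 CPM. The overlap is of whole gene spans. Reads from any part shared by their exons could not be told apart without strand. Mmp25 (MT6-MMP) had an estimate of 0.92 ± 0.62, Mmp16 of -0.15 ± 0.39 and Mmp17 of -0.03 ± 0.50, each with overlapping genotypes.

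Mmp19, a secreted MMP of fibroblasts, vessels and macrophages, was at 121, 169.6 and 166 CPM in WT and at 74.4, 88.6 and 52.2 CPM in KO. No KO library reached the lowest WT library. Its log2 fold change was -1.08 ± 0.26 (SE, n = 3 per genotype), or 2.12-fold lower, with an adjusted p of 0.24 by edgeR and 0.0211 by DESeq2. Leaving out any 1 library gave -1.26 to -0.90, with an unadjusted edgeR p of at most 0.018. Mmp19 (chr10:128790910-128800824) overlaps Tmem198b on the other strand, which had 8.88 to 22.4 CPM. Of the remaining MMPs tested, Mmp23 was at 18.6, 18.2 and 20.4 CPM in WT and at 11.4, 18.3 and 13.6 CPM in KO (-0.40 ± 0.23). Mmp28, an epithelial MMP, had an estimate of 0.21 ± 0.47 with overlapping genotypes, and Mmp27 one of -0.73 ± 0.35. Mmp27 was at 1.78 to 2.03 CPM in WT and 0.884 to 1.40 CPM in KO, with no overlap at these low levels.

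**Figure D3:**
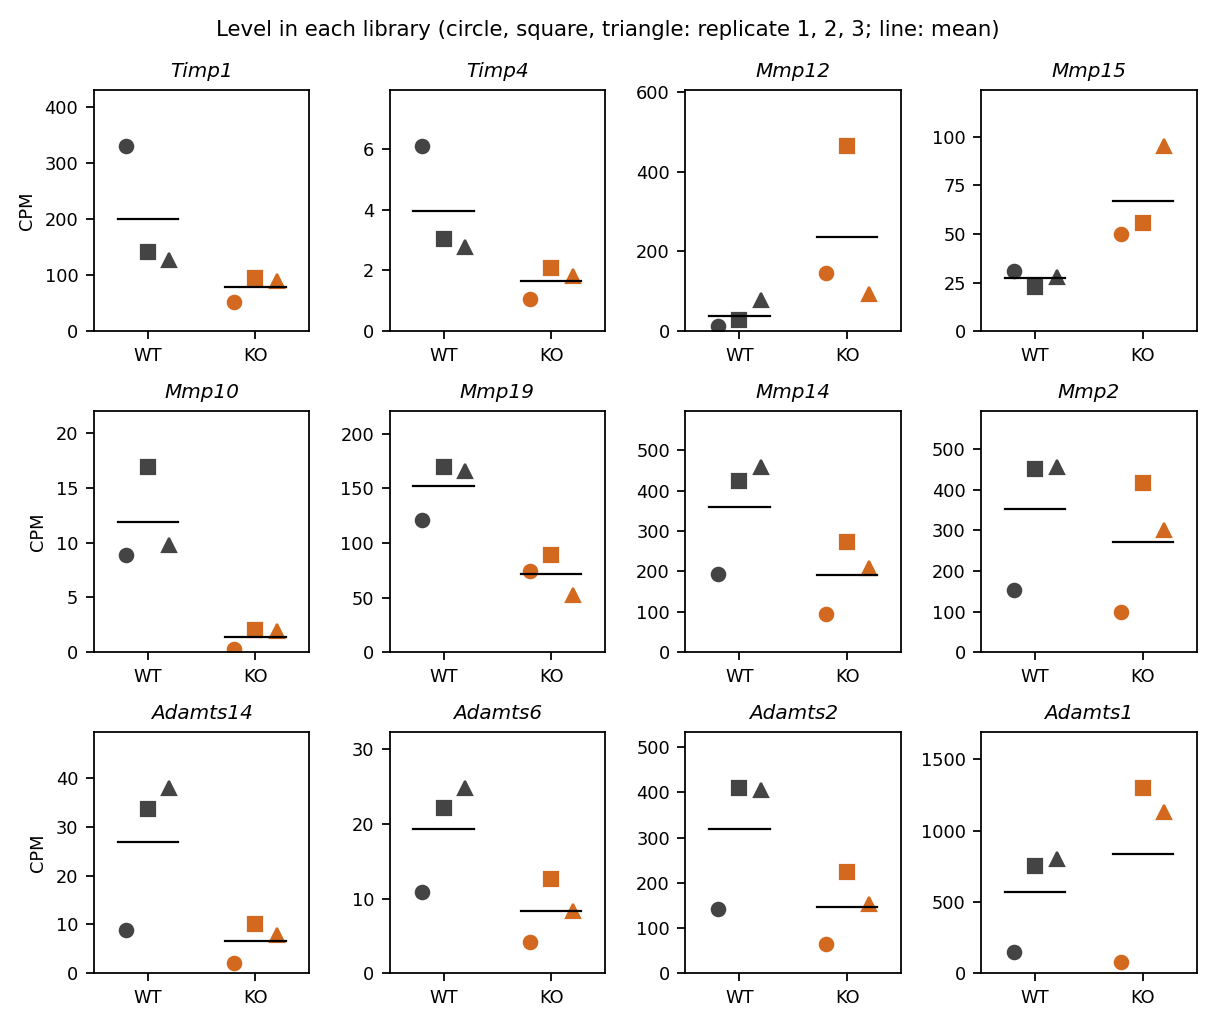
CPM in each library for 12 genes, each panel with its own linear axis from 0, with circles, squares and triangles for replicates 1, 2 and 3 and a line at the mean of the 3 mice of each genotype. KO points lie above all WT points for Mmp12 and Mmp15 and below them for Mmp10, Mmp19, Timp1 and Timp4, while the circles are lowest in both genotypes for Mmp14, Mmp2 and the 4 ADAMTS genes.

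The 4 TIMP genes all had lower estimates in KO, and the size differed from 1 gene to the next. Timp1, the inducible secreted inhibitor, was at 331, 142 and 128 CPM in WT and at 51.6, 94.2 and 90.3 CPM in KO. All KO libraries were below all WT libraries, and WT replicate 1 was more than the other WT libraries together. The log2 fold change was -1.35 ± 0.44 (SE, n = 3 per genotype), or 2.54-fold lower, with an adjusted edgeR p of 0.333. It was -0.78 without WT replicate 1 and -0.54 without both first replicates, so that its size rested in large part on WT replicate 1. WT replicate 1 also had the highest summed airway secretory markers, 11775.5 CPM against 305 to 4507 CPM in the other 5 libraries. The summed ciliated cell markers and the summed mesothelial markers were highest in WT replicate 1 as well. The part of any of these marker lists in the Timp1 value was not tested. Timp1 (chrX:20870166-20874735) lies within Syn1 on the other strand, which had 2.00 to 5.11 CPM.

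Timp4, the least abundant inhibitor, was at 6.11, 3.04 and 2.77 CPM in WT and at 1.07, 2.08 and 1.82 CPM in KO. The genotypes did not overlap, and WT replicate 1 was again the highest library (log2 fold change -1.26 ± 0.46, adjusted edgeR p of 0.378). The estimate was -0.57 without both first replicates, so its size also rested in large part on them. Timp4 (chr6:115241892-115252205) overlaps Syn2 on the other strand, which had 7.31 to 24.3 CPM, more than Timp4 itself. Timp2, the partner of MT1-MMP, was at 508, 854 and 899 CPM in WT and at 524, 767 and 664 CPM in KO, for -0.21 ± 0.30. Timp3, the matrix-bound inhibitor, was at 758, 1038 and 963 CPM in WT and at 677, 994 and 975 CPM in KO, for -0.06 ± 0.27. For both genes the genotypes overlapped. Timp3 (chr10:86300372-86349506) lies within Syn3, which had at most 0.709 CPM.

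To set proteases against inhibitors, levels per transcript length were summed by family, using FPKM as deposited, a fragment count divided by gene length and by library size. The KO columns of that table carry no replicate number, so KO values are given in rising order. The 23 MMP genes summed to 240.4, 478 and 482 FPKM in WT replicates 1 to 3 and to 195, 316 and 508 FPKM in KO. The 4 TIMP genes summed to 612, 591 and 576 FPKM in WT and to 331, 486 and 527 FPKM in KO, with every KO sum below every WT sum. The MMP sums overlapped and the TIMP sums did not, but without Timp1 the TIMP sums were 268, 433 and 433 FPKM in WT and 273, 383 and 418 FPKM in KO and overlapped. In means, MMP sums were 399.9 ± 138 FPKM in WT and 339.8 ± 158 FPKM in KO (SD, n = 3), and TIMP sums were 593 ± 18.3 and 448 ± 104 FPKM. On CPM per kilobase of exon, which keeps replicate numbers, KO replicate 1 was lowest in both families (MMP 150, TIMP 276).

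The ratio of summed MMP to summed TIMP levels was 0.393, 0.808 and 0.836 in WT and 0.591, 0.650 and 0.964 in KO. Its mean was 0.679 ± 0.249 in WT and 0.735 ± 0.201 in KO (SD, n = 3). On the log2 scale the difference, KO minus WT, was 0.16, less than the pooled SD of 0.51, and the genotypes overlapped. The direction was not stable: the difference was -0.10 without Mmp12, -0.21 without Timp1 and -0.19 without WT replicate 1. With ADAMTS genes in place of MMP genes it was 0.44, beside a pooled SD of 1.19. It was 0.32 for secreted MMPs alone, and 0.34 for the difference in mean log2(FPKM + 0.1), beside that measure's pooled SD of 0.33. The size and direction of the balance thus depended on how it was formed.

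The make-up of the sums is given as shares. Mmp14 led the MMP sum in WT at a mean of 132 FPKM, and in KO it was at 73.4 FPKM beside 87.6 FPKM for Mmp2. The Mmp14 share of the MMP sum was 32.2 ± 3.86% in WT and 21.3 ± 3.63% in KO (SD, n = 3). Mmp12 took 1.26, 1.52 and 4.49% of the MMP sum in WT and 8.35, 20.1 and 27.0% in KO, without overlap. Mmp2 held 25.9 ± 6.43% in WT and 24.3 ± 7.66% in KO. Of the TIMP sum, Timp1 took 56.3, 26.8 and 24.9% in WT and 17.3 to 21.2% in KO, so WT replicate 1 was the library in which Timp1 led. Timp2 took 38.9 ± 2.32% and Timp3 41.3 ± 1.15% in KO. Shares within a sum are tied to each other, so a larger share of 1 gene lowers the others.

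**Figure D4:**
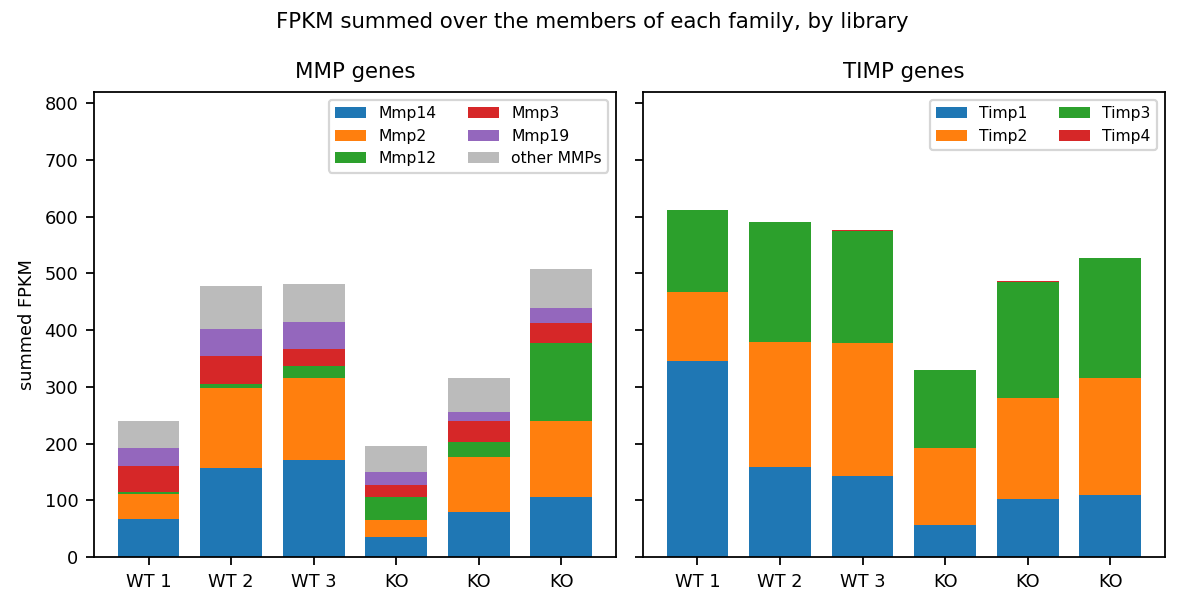
Stacked bars of FPKM summed over the MMP genes (left) and the TIMP genes (right) in each library, coloured by gene, with the KO columns unnumbered and in the same order in both panels. The MMP sums of the 2 genotypes overlap, while the 3 KO sums of TIMP genes (331 to 527 FPKM) lie below the 3 WT sums (576 to 612 FPKM), and the Timp1 bar of WT replicate 1 is the tallest of its kind.

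Known protease and inhibitor pairs were compared within each library as ratios of CPM per kilobase of exon, which keep the replicate numbers. Mmp14 to Timp2 was 0.251, 0.325 and 0.334 in WT replicates 1 to 3 and 0.117, 0.233 and 0.204 in KO replicates 1 to 3, without overlap. Mmp2 to Timp2 was 0.347, 0.610 and 0.587 in WT and 0.218, 0.627 and 0.525 in KO, with overlap. Mmp9 to Timp1, a pair known to bind as precursor and inhibitor, was 0.00753, 0.0563 and 0.0483 in WT and 0.0349, 0.0317 and 0.0417 in KO, with overlap. Adamts4 to Timp3 was 0.0656, 0.161 and 0.168 in WT and 0.0105, 0.0932 and 0.128 in KO, with overlap. Adamts1 to Timp3 was 0.304, 1.11 and 1.28 in WT and 0.184, 2.01 and 1.78 in KO, with overlap. So 1 of these 5 pairs separated the genotypes, beside 21.1% of all single genes tested. No such share was computed for ratios of genes, so the count is not read as a result about that pair. Mmp12 to Timp1 was 0.00433, 0.0233 and 0.0743 in WT and 0.347, 0.606 and 0.127 in KO. This last pair combines the gene of highest estimate with a gene of low estimate and was picked after their values were seen.

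Among the ADAMTS genes, the subfamilies had medians on both sides of 0. The 3 procollagen N-propeptidases, which remove the amino-terminal propeptide of fibrillar procollagens, all had lower estimates in KO (median -1.12). Adamts14 was at 8.94, 33.7 and 38.0 CPM in WT and at 2.02, 10.1 and 7.86 CPM in KO. Only KO replicate 2 exceeded the lowest WT library, WT replicate 1. Its log2 fold change was -2.01 ± 0.73 (SE, n = 3 per genotype), or 4.03-fold lower, with an adjusted edgeR p of 0.376. Without both first replicates it was -1.99 with an adjusted edgeR p of 0.043, 1 of 2 genes of the 45 in that fit that were called, where the background was 0.275%. Adamts14 lies at chr10:61197112-61273438.

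Adamts2, the most abundant of the N-propeptidases, was at 141, 410.1 and 407 CPM in WT and at 63.7, 224 and 153 CPM in KO (-1.12 ± 0.57). Adamts3 had an estimate of -0.88 ± 0.66. The 2 genes known for cutting cartilage oligomeric matrix protein also had lower estimates. Adamts12 was at 38.3, 169.7 and 172 CPM in WT and at 10.3, 82.5 and 38.9 CPM in KO (-1.53 ± 0.84). Adamts7 was at 7.59, 20.1 and 23.0 CPM in WT and at 2.15, 11.0 and 6.07 CPM in KO (-1.40 ± 0.66), and it overlaps Tbc1d2b on the other strand, at 71.0 to 160.4 CPM. In all 5 genes the first replicate was the lowest of its genotype, and KO replicate 1 was the lowest library of all.

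All 7 ADAMTS genes that cut aggrecan, versican and similar proteoglycans were tested, with 5 higher and 2 lower estimates and a median of 0.24. Adamts1, the most abundant ADAMTS transcript per length at 111 FPKM in WT and 170.4 FPKM in KO, was at 149.8, 752 and 801 CPM in WT and at 81.3, 1299 and 1133 CPM in KO. The gap between first and later replicates was wider than that between genotypes, and the estimate was 0.56 ± 1.01. Adamts9 was at 34.3, 66.9 and 65.8 CPM in WT and at 32.0, 135 and 124 CPM in KO. The first replicates were alike and the later ones apart, for an estimate of 0.80 ± 0.55. With both first replicates left out, Adamts9 was the other gene called, at 0.97 with an adjusted edgeR p of 0.043. Adamts8 (0.51 ± 0.52), Adamts15 (0.24 ± 0.55) and the scarce Adamts20 (0.12 ± 0.78) had overlapping genotypes. Adamts4 (-0.75 ± 0.94) and Adamts5 (-0.10 ± 0.29), the main aggrecanases of cartilage, had the 2 lower estimates.

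Of the other ADAMTS genes, Adamts6 and Adamts10 are close relatives known for acting on fibrillin microfibrils, and their estimates went in opposite directions. Adamts6 was at 10.9, 22.2 and 24.8 CPM in WT and at 4.20, 12.6 and 8.39 CPM in KO, for -1.20 ± 0.48 (SE, n = 3 per genotype) with an adjusted edgeR p of 0.413. Adamts10 was at 35.6, 84.7 and 111 CPM in WT and at 67.9, 152 and 150.0 CPM in KO, for 0.67 ± 0.49. Both genes had overlapping genotypes, with the first replicates lowest. Adamts17, another gene linked to fibrillin, had an estimate of 1.24 ± 0.63 at 1.07 to 4.11 CPM in WT and 2.87 to 9.02 CPM in KO. Adamts16 (-1.44 ± 1.18) was at or below 1.20 CPM and Adamts19 (0.12 ± 0.63) at or below 1.99 CPM in every library, and their genotypes overlapped. Adamts6 lies at chr13:104287835-104496695.

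The ADAMTS-like proteins bind matrix and fibrillin without cutting it. Adamtsl2, which binds latent TGF-beta binding protein and fibrillin, was at 23.2, 49.3 and 48.5 CPM in WT and at 28.5, 119 and 98.4 CPM in KO. KO replicates 2 and 3 were above every WT library and KO replicate 1 was not (1.03 ± 0.56). Adamtsl1 was at 10.7 to 11.0 CPM in WT and 11.5 to 15.2 CPM in KO, a small difference without overlap (0.30 ± 0.20). Adamtsl4 was at 42.5, 62.0 and 44.1 CPM in WT and at 28.9, 47.4 and 59.4 CPM in KO, and its estimate of -0.13 ± 0.30 was 0.11 without KO replicate 1. Adamtsl3 (0.27 ± 0.79) and Adamtsl5 (-0.10 ± 0.30) overlapped between genotypes.

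**Figure D5:**
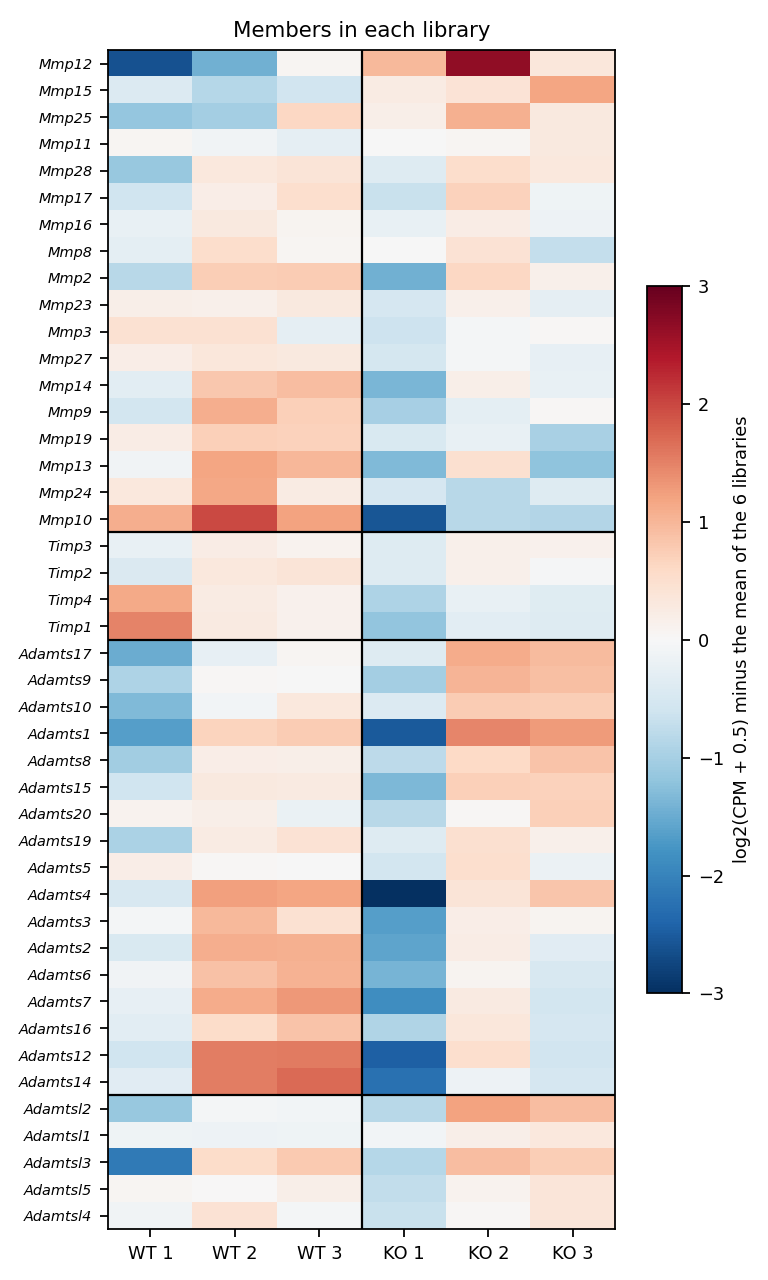
The 44 tested genes in rows, grouped by family, and the 6 libraries in columns, coloured by log2(CPM + 0.5) minus the mean of the gene over the 6 libraries, with colours ending at -3 and 3. Most ADAMTS rows are lowest in the first replicates of both genotypes, while Mmp12 and Mmp15 are highest in KO columns and Mmp10 and Mmp19 lowest there.

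Fibroblast marker lists are given as measured values, and whether they moved with these genes was not tested. Of 7 alveolar fibroblast markers, all detected, 2 were higher in KO at an unadjusted edgeR p under 0.05 (background 5.95%). The sum was 1596 to 2321 CPM in WT and 2992 to 4179 CPM in KO, without overlap. Tcf21, a transcription factor of these cells, was at 12.7, 17.5 and 16.1 CPM in WT and at 38.6, 32.2 and 43.0 CPM in KO. Of the 8 activated fibroblast markers, all detected, 2 were lower in KO at that p (background 5.89%), and the sums of the 2 genotypes, given above, overlapped. No marker of these lists was at 0. The part of fibroblast composition in the ADAMTS, Mmp2, Mmp14 and Mmp19 values was not tested.

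Other genes of the pathway were read from lists. None of them passed an adjusted edgeR p of 0.05, and the counts here are at an unadjusted p under 0.05, with the same backgrounds of 5.95% higher and 5.89% lower. Of 8 MMP activators tested, 3 were lower and none higher, with a median log2 fold change of -0.49. The first was Furin, the proprotein convertase that removes MMP propeptides, at 271, 379 and 372 CPM in WT and 102, 228 and 214 CPM in KO (-0.91 ± 0.35). The second was Pcsk5, a related convertase (-0.97 ± 0.40). The third was Plaur, the urokinase receptor that brings plasmin formation to the cell surface (-0.67 ± 0.27). All 3 lay below WT in every KO library, as did 11.3% of all genes tested. They were named by their p, so this adds no separate support. The summed list was 1201 to 1308 CPM in WT and 808 to 947 CPM in KO.

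Of 7 inhibitors and clearance genes other than TIMPs, 2 were lower and none higher, with a median of -0.57. A2m, a protease-trapping plasma protein, was at 10.9, 13.0 and 9.31 CPM in WT and at 1.14, 5.72 and 5.30 CPM in KO (-1.45 ± 0.58). Tfpi2, a matrix-bound inhibitor of plasmin and trypsin-like proteases, was at 24.0, 23.1 and 20.8 CPM in WT and at 7.90, 15.4 and 10.9 CPM in KO (-0.99 ± 0.27). Both lay below WT in every KO library, beside 11.3% of all genes tested, and both were named by their p. Reck, a membrane-anchored MMP inhibitor, had a higher estimate at an unadjusted edgeR p of 0.093, at 13.1, 35.4 and 34.3 CPM in WT and 28.8, 58.2 and 72.9 CPM in KO (0.95 ± 0.48).

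Of 11 ADAM genes, membrane-anchored relatives, many of which shed surface proteins, 2 were lower and none higher, with a median of -0.31. Adam12 was at 48.7, 160.3 and 124 CPM in WT and at 6.35, 38.4 and 19.0 CPM in KO (-2.38 ± 0.72), and Adam8, a leukocyte sheddase, had an estimate of -1.05 ± 0.36. Adam12, Adam8, Adam9 and Adam23, 4 of the 11, lay below WT in every KO library, against a background of 11.3%. Of 2 tolloid genes tested out of 5 tolloids and meprins, Bmp1, the procollagen C-proteinase, was lower at 140.1, 224 and 265 CPM in WT and 51.9, 148 and 99.6 CPM in KO (-1.07 ± 0.43). Tll2 and Mep1b had 0 counts in every library. Of 11 substrates tested, among them the collagen genes Col1a1 and Col3a1, elastin and versican, none had an unadjusted edgeR p under 0.05, 9 had lower estimates and the median was -0.84.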

How the data were processed

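Gene counts per library were deposited by the authors as raw whole numbers for 26100 gene rows, and a second deposited table held FPKM values per gene, both per the file headers. The submitters' processing notes name HISAT2 2.0.4, StringTie 1.3.4d and GRCm38 without their roles. Not given in the sources used here are the counting tool, its strand setting and the annotation release. RNA was extracted with TRIzol, and libraries were made with a NEBNext Ultra kit, per the labels' protocols.

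Counts were tested with edgeR 4.0.16 (R 4.3.3): genes kept by filterByExpr (16633), TMM scaling, a robust quasi-likelihood fit on genotype, 3 mice against 3, and Benjamini-Hochberg adjustment over all genes tested. CPM values are TMM-scaled. The standard error is the absolute log2 fold change divided by the square root of F. Whether the mice came from separate litters or cages is not stated, so the p-values reflect only how far these samples vary, which may be technical. DESeq2 1.42.0, limma 3.58.1 (voom and log2(FPKM + 1) or log2(FPKM + 0.1)), other scalings (DESeq2 size factors, total counts) and filters (1 CPM or 0.5 FPKM in 3 libraries, or none), a replicate block, each library left out and both first replicates left out were alternatives. The last, the CPM per kilobase ratios and the balance without Timp1 were chosen after seeing the data. CPM per kilobase used merged exons of GENCODE M21 (GRCm38), which also gave the gene coordinates and matched all 51 genes by identifier. The members and the gene lists were chosen with earlier results of these data known. Named genes were the 4 TIMP genes, every member at an unadjusted edgeR p under 0.05, the 2 tested members of highest mean CPM in each subfamily and up to 3 genes of smallest p per pathway list. Other members are named to complete their subfamily. The edgeR script was tested on simulated data. An item among the genes that overlap members is not reported here.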

Additional observations from a re-analysis of the deposited data

How the results depend on the processing

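Of 510 alternative values for 27 named members, 485 kept their direction and their side of the adjusted threshold, 17 crossed it in the same direction and 8 reversed. The main edgeR fit called no gene, so a value could cross only toward being called. Keeping the uncalled side therefore says little about stability. Members called were 0 with edgeR (background 0%), 4 with DESeq2 (background 3.5%) and 12 with limma-voom and sample weights (background 13.4%). They were 2 without both first replicates (background 0.275%) and 0 with any 1 library left out. At an unadjusted p under 0.05 the count was 9 with edgeR (background 11.8%) and 23 without both first replicates (background 30%). It was 14 with DESeq2, 23 with limma-voom and sample weights and 5 to 14 with 1 library left out. The share over all genes was not computed for these last fits, so their counts have no background to be read against. The replicate block gave 17 members at an unadjusted p under 0.05 and 0 called, and no share over all genes was computed for that fit. The labels do not say whether the replicate numbers pair the mice. Deviations of same-numbered libraries correlated at 0.351, 0.350 and -0.099, and WT replicate 3 correlated best with KO replicate 2 (0.468). With 3 libraries per genotype, these correlations cannot decide it.

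The TIMP median of -0.73 was -0.47 with sample weights, -0.22 on log2(FPKM + 1) with or without the filter, -0.41 without both first replicates and -0.90 to -0.55 with 1 library left out. The ADAMTS median was 0.018 with sample weights and -0.48 to 0.25 with 1 library left out, the ADAMTSL median -0.11 to 0.40 and the MMP median -0.57 to -0.21. The log2 balance of 0.16 was 0.32 for secreted MMPs, 0.34 as a mean of log2(FPKM + 0.1), 0.44 with ADAMTS genes, 0.18 on CPM per kilobase, -0.10 without Mmp12, -0.0035 on summed CPM, -0.21 without Timp1, -0.041 on CPM per kilobase without both first replicates and -0.19 to 0.35 with 1 library left out. With 1 library left out, Adamtsl4 ranged from -0.37 to 0.11 (0.018 without both first replicates), Mmp2 from -0.82 to 0.023, Mmp8 from -0.47 to 0.10 and Timp3 from -0.18 to 0.10. The cause of these changes was not tested. The precision of every value is limited by 3 mice per genotype.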
